A study of Mus musculus with 4 samples.

Results

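On day 8 of differentiation, mRNA was sequenced in 4 stable lines of 3T3-L1 cells, and the genes described here are 9 genes of bone morphogenetic protein (BMP) signaling and its ID targets: Bmp4, Bmpr1a, Bmpr2, Smad1, Smad5, Id1, Id2, Id3 and Grem1. They were chosen by name, from their place in the pathway, with earlier results of these data known. A row of RefSeq transcripts matched 7 of the 9 genes, out of 13085 genes in all, and the ligand gene Bmp4 and the antagonist gene Grem1 were not analysed here. 3T3-L1 is a murine preadipocyte line that stores lipid once adipogenic hormones are added. The FLAG-CACUL1 line stably expressed FLAG-tagged CACUL1, and its control was the FLAG line with the empty vector. The sh-CACUL1 cells carried a short hairpin RNA against CACUL1 and had as control the sh-Luc line, with a hairpin that targets luciferase. All 4 lines were taken to confluence and then induced with rosiglitazone at 5 μM, IBMX at 0.5 mM, dexamethasone at 1 μg/ml and insulin at 5 μg/ml, followed by insulin alone. Every control therefore had the same hormone treatment as its condition, rosiglitazone included. The lines were selected with different drugs, G418 for the FLAG vectors and hygromycin B for the hairpin vectors, from resistant colonies, and each group was 1 sample of 1 line. No difference below has a replicate check, and no p-value is given. A difference between 2 lines cannot be told apart from a difference between the groups.

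BMP ligands bind a complex of type I and type II receptors at the cell surface. The type II receptor (BMPR2 and the activin type II receptors) activates the type I receptor (BMPR1A, ACVR1), which phosphorylates SMAD1, SMAD5 and SMAD9. These join SMAD4, enter the nucleus and switch on target genes, of which Id1, Id2 and Id3 are the classic ones, while SMAD6 and SMAD7 hold the pathway back. ID proteins have a helix-loop-helix domain but no DNA-binding region, so they take up the E proteins (Tcf3, Tcf4 and Tcf12) and keep them and their partners off DNA. BMP signaling, BMP4 above all, is known to commit mesenchymal precursors to the adipocyte lineage, and BMPs also drive bone and cartilage formation.

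The values are FPKM (fragment counts divided by transcript length and by the size of the library), as deposited. A change is the difference of log2(FPKM + 1) from the control line of the same vector, which understates the change of low genes, and 2-fold is the cut-off of the study's methods. Read counts were not used here, and depth was estimated from the steps of low FPKM values at about 14500000 fragments in FLAG against 14200000 in FLAG-CACUL1, and 24100000 in sh-Luc against 14900000 in sh-CACUL1. The 95% intervals of FPKM ratios given below are exact binomial intervals from these estimated fragments, and they cover counting error only, not the variation between cultures. Over all genes the median log2 difference was 0.09 for FLAG-CACUL1 against FLAG, -0.30 for sh-CACUL1 against sh-Luc and -0.18 in FLAG against sh-Luc, so a gene of sh-CACUL1 cells has to be read against that shift. Cacul1 itself had 9.61 FPKM in FLAG against 11.8 in FLAG-CACUL1, and 10.2 in sh-Luc against 5.39 in sh-CACUL1. These were log2 differences of 0.27 and -0.82, both short of 2-fold. The samples were labelled preadipocyte, and 8 of 10 adipocyte markers had at least 1 FPKM in all 4 samples. Their summed level was 8558 FPKM in FLAG against 918 FPKM in FLAG-CACUL1, and 1747 FPKM in sh-Luc against 17951 FPKM in sh-CACUL1. In FLAG-CACUL1 10 of 10 of these markers were at least 2-fold lower than in FLAG, and in sh-CACUL1 10 of 10 were at least 2-fold higher than in sh-Luc. The FLAG control also stood apart from the sh-Luc control, with 9 of 10 markers at least 2-fold higher. The part of adipocyte content in the values below was not tested, and in bulk samples fewer cells of a type cannot be told apart from less RNA per cell.

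The ID genes are close relatives, and the stretch in which their coding sequences are most alike is shown because the main pattern in these data is a difference between them. Each line is 120 bases of coding sequence, 5′ to 3′ on the coding strand, from GENCODE M21 transcripts on GRCm38, with the bases shared by all 3 genes in capitals. The Id1 stretch is coding bases 178 to 297 of 447 (chr2:152736518-152736637, plus strand, exon 1), that of Id2 is bases 109 to 228 of 405 (chr12:25095783-25095902, minus strand, exon 1), and that of Id3 is bases 124 to 243 of 360 (chr4:136144002-136144121, plus strand, exon 1).
Id1: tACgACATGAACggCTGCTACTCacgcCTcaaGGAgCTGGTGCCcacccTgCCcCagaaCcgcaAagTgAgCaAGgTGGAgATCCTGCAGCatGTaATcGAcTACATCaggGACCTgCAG
Id2: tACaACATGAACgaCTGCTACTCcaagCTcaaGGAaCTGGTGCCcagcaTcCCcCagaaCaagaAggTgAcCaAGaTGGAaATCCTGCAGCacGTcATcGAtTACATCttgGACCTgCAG
Id3: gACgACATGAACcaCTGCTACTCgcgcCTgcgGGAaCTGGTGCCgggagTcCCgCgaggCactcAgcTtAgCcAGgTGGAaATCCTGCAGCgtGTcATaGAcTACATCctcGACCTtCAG
In this stretch 77 of 120 bases (64.2%) were the same in all 3 genes. Id1 and Id2 shared 98 bases, Id1 and Id3 shared 85 and Id2 and Id3 shared 86. The longest unbroken run that any pair shared over the whole transcripts was 19 bases, between Id2 and Id3. No stretch of 31 bases of the Id1 or Id3 transcript occurred in another gene, while 39 of 1240 stretches of Id2 (3.15%) also occurred in the annotated gene Gm6175, so a small part of the Id2 value is uncertain.

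Id1 and Id3 differed in opposite directions in FLAG-CACUL1. Id1 (NM_010495, chromosome 2 of GRCm38 from 152736251 to 152737410, plus strand, 2 exons), which encodes the ID protein most often used as a readout of BMP signaling, had 37.7 FPKM in FLAG against 76.5 in FLAG-CACUL1, and 85.3 in sh-Luc against 72.5 in sh-CACUL1. FLAG was the low sample, and the other 3 lay within 1.18-fold of each other. In FLAG-CACUL1 the FPKM of Id1 was 2.03 times that in FLAG (95% interval 1.83 to 2.27), a log2 difference of 1.00, which is at the 2-fold cut-off and was 0.85, below it, after median-of-ratios scaling. In sh-CACUL1 the log2 difference of Id1 from sh-Luc was -0.23, against the shift of -0.30 of all genes, and its sign depended on the scaling, with -0.03 after quantile normalization and 0.21 after median-of-ratios scaling. Against sh-Luc in place of FLAG, the log2 difference of Id1 in FLAG-CACUL1 was -0.15, so the higher level was seen against only 1 of the 2 controls.

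Id3 (NM_008321, chromosome 4 from 136143497 to 136145755, plus strand, 3 exons), another ID protein induced by BMPs, had 56.4 FPKM in FLAG against 21.6 in FLAG-CACUL1, and 41.8 in sh-Luc against 20.8 in sh-CACUL1. Both controls were above both CACUL1 lines. The FPKM of Id3 was 2.61 times lower in FLAG-CACUL1 (95% interval 2.32 to 2.94) and 2.00 times lower in sh-CACUL1 (95% interval 1.79 to 2.25) than in the control. On the log2(FPKM + 1) scale these were differences of -1.35 and -0.97, so the sh-CACUL1 value was just short of the cut-off. Against sh-Luc in place of FLAG, the log2 difference of Id3 in FLAG-CACUL1 was -0.92, also short of it. The direction in sh-CACUL1 held after quantile normalization (-0.61) and median-of-ratios scaling (-0.54). FLAG-CACUL1 and sh-CACUL1, made to raise and to lower CACUL1, had almost the same Id3 level as deposited. Their ratio of 1.04 had a 95% interval of 0.898 to 1.19. Median-of-ratios scaling divides their FPKM by 1.06 and 0.858, which puts sh-CACUL1 above FLAG-CACUL1 in Id3.

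Id2 (NM_010496, chromosome 12 from 25093799 to 25097140, minus strand, 3 exons), an ID protein known to be present in differentiating adipocytes, followed the vector. It had 1.70 FPKM in FLAG and 1.96 in FLAG-CACUL1 but 11.6 in sh-Luc with 12.3 in sh-CACUL1. As deposited, Id2 did not differ past counting error within either vector. The FPKM ratios were 1.16 (95% interval 0.688 to 1.93) in FLAG-CACUL1 and 1.06 (95% interval 0.894 to 1.25) in sh-CACUL1. Vector, selection drug and line cannot be told apart here. Between the controls, Id2 was 6.84 times lower in FLAG than in sh-Luc (95% interval 4.75 to 10.3). Only about 31 fragments in FLAG and 35 in FLAG-CACUL1 stand behind the Id2 values there. After the shift of all genes is taken off, the sh-CACUL1 value was a log2 difference of 0.38. Id4, the remaining family member, had 0.40 FPKM in FLAG against 0.32 in FLAG-CACUL1, and 4.39 in sh-Luc against 0.51 in sh-CACUL1. It was thus high in sh-Luc alone, with a log2 difference of -1.83 in sh-CACUL1.

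**Figure D1:**
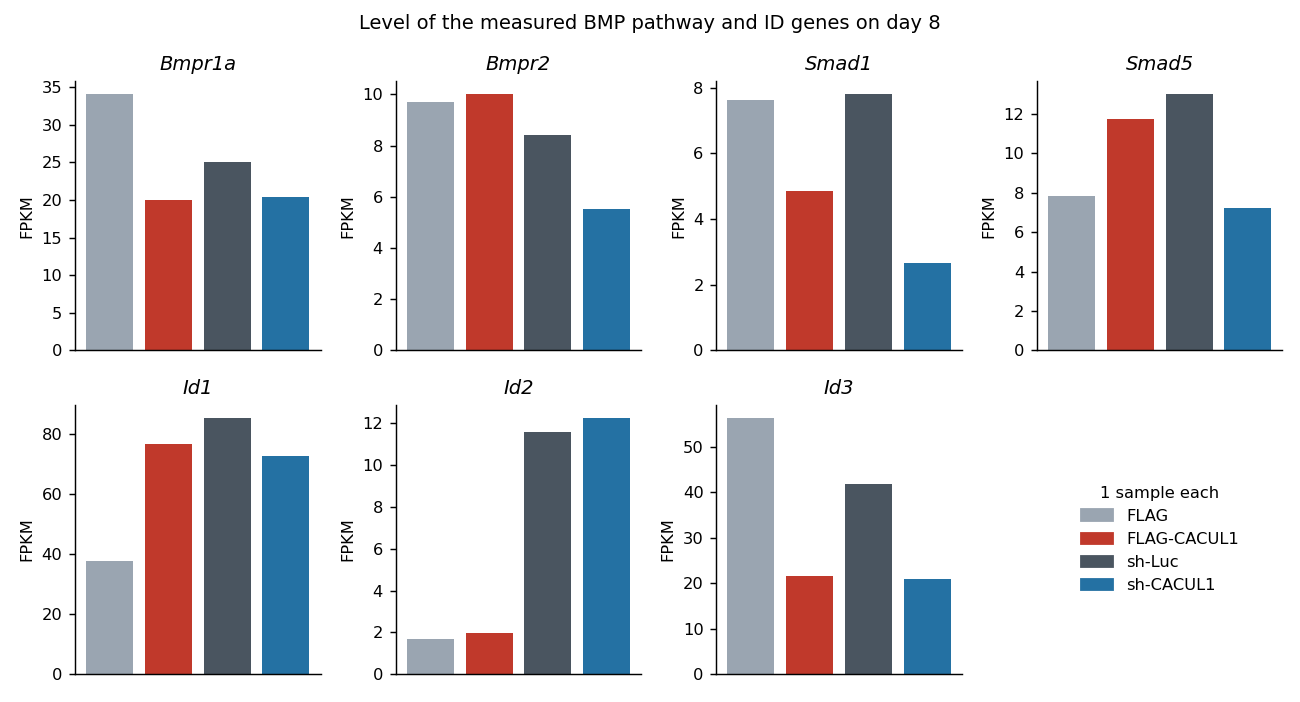
Level of each of the 7 measured genes in FPKM (linear axes from 0, one bar per line, 1 sample each). Id1 is lowest in FLAG at 37.7, Id3 is near 21 in both CACUL1 lines and at 41.8 or more in both controls, and Id2 separates the hairpin lines from the FLAG lines.

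Between FLAG and FLAG-CACUL1 the total of the ID family moved less than its make-up. Summed over Id1 to Id4, the level was 96.1 FPKM in FLAG against 100.4 in FLAG-CACUL1, and 143.1 in sh-Luc against 106.1 in sh-CACUL1. Id3 was the largest share in FLAG, with 58.6% of the family, and Id1 was the largest in the other 3 samples. The Id1 share went from 39.2% in FLAG to 76.2% in FLAG-CACUL1, and from 59.6% in sh-Luc to 68.3% in sh-CACUL1. The Id3 share went from 58.6% to 21.5% and from 29.2% to 19.6%.

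**Figure D2:**
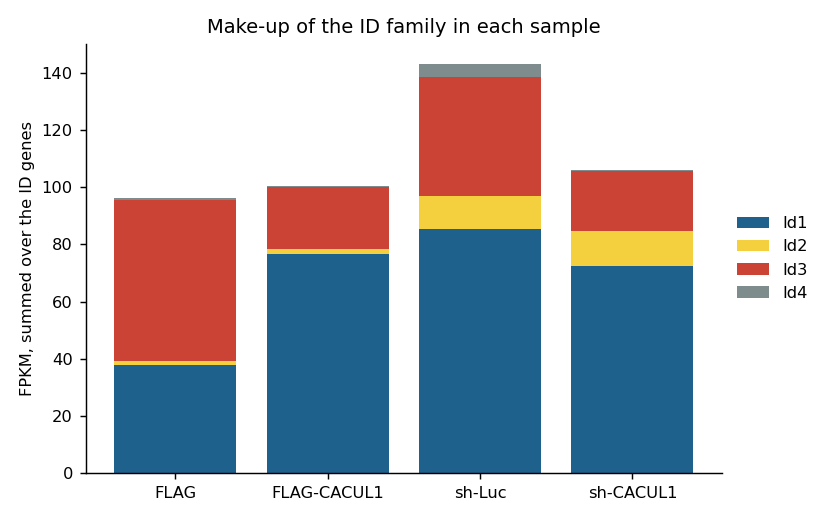
FPKM of the 4 ID genes stacked for each sample (linear axis from 0). The total is 96.1 in FLAG and 100.4 in FLAG-CACUL1, while the Id3 block is 58.6% and 21.5% of it, respectively, and the Id1 block 39.2% and 76.2%.

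A ratio of 2 genes within a sample does not depend on any scaling that divides the whole sample by the same factor. Quantile normalization, which works by rank, can change it, and the ratios below are of FPKM as deposited. The Id1 to Id3 ratio of FPKM was 0.668 in FLAG (95% interval 0.599 to 0.743) against 3.55 in FLAG-CACUL1 (3.15 to 3.99), and 2.04 in sh-Luc (1.90 to 2.19) against 3.48 in sh-CACUL1 (3.09 to 3.91). It was higher in each CACUL1 line than in its control, by 5.31-fold in FLAG-CACUL1 and by 1.70-fold in sh-CACUL1. The controls differed from each other as well, by 3.06-fold, which is more than the difference between sh-CACUL1 and sh-Luc.

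As deposited, the receptor genes Bmpr1a and Bmpr2 had their larger differences in different comparisons. Bmpr1a (NM_009758, chromosome 14 from 34410734 to 34503341, minus strand, 13 exons), a type I receptor, had 34.1 FPKM in FLAG against 20.0 in FLAG-CACUL1, and 25.1 in sh-Luc against 20.5 in sh-CACUL1. FLAG was the high sample. The FPKM of Bmpr1a was 1.71 times lower in FLAG-CACUL1 than in FLAG (95% interval 1.61 to 1.82), a log2 difference of -0.74, and no scaling changed its sign. In sh-CACUL1 the log2 difference of -0.28 was that of all genes (-0.30) and its sign turned after quantile normalization (0.12) and median-of-ratios scaling (0.15). Exons of the annotated gene Gm17110 on the other strand cover 290 of the 5956 bases of Bmpr1a, and whether counting used the strand is not given in the sources used here.

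Bmpr2 (NM_007561, chromosome 1 from 59763400 to 59879014, plus strand, 13 exons), the type II receptor specific to BMPs, had 9.70 FPKM in FLAG against 10.0 in FLAG-CACUL1, and 8.43 in sh-Luc against 5.52 in sh-CACUL1. As deposited, the first 3 samples were close and sh-CACUL1 was low. FLAG-CACUL1 and FLAG did not differ past counting error, with an FPKM ratio of 1.03 (95% interval 0.968 to 1.10), and the sign of the log2 difference of 0.04 turned under both other scalings. In sh-CACUL1 the FPKM of Bmpr2 was 1.53 times lower than in sh-Luc (95% interval 1.42 to 1.64). Its log2 difference of -0.53 was -0.23 after the shift of all genes is taken off. It was -0.07 after quantile normalization and -0.14 after median-of-ratios scaling. Under those scalings FLAG was above sh-Luc in Bmpr2, by 0.43 and 0.45, so the low sh-CACUL1 level depended on the scaling. The ratio of Bmpr1a to Bmpr2 was 1.99 in FLAG-CACUL1, below the 3.52 of FLAG, and 3.70 in sh-CACUL1, above the 2.97 of sh-Luc.

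Smad1 and Smad5 encode near-identical signal carriers of the pathway. The 120 coding bases in which the 2 genes are most alike are shown in the same way, since reads of this stretch have to be told apart to measure either gene. They are coding bases 1009 to 1128 of 1398 in exon 6 of each transcript, at chr8:79343780-79343899 on the minus strand for Smad1 and chr13:56735811-56735930 on the plus strand for Smad5, with shared bases in capitals.
Smad1: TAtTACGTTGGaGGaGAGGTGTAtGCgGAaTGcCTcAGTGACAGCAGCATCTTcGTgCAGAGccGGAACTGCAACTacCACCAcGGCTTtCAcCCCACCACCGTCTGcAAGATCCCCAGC
Smad5: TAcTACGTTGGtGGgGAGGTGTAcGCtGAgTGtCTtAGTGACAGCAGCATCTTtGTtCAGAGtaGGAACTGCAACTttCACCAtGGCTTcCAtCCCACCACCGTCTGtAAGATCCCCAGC
Here 102 of 120 bases (85.0%) were the same, and the longest unbroken run shared by the whole transcripts shown was 17 bases. Of stretches of 31 bases, 1 of 3069 in Smad1 and 81 of 7170 in Smad5 occurred in another gene, most of the latter in Gm27301, which lies within Smad5 on the same strand.

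Smad1 (NM_008539, chromosome 8 from 79338395 to 79399518, minus strand, 7 exons) had 7.62 FPKM in FLAG against 4.84 in FLAG-CACUL1, and 7.82 in sh-Luc against 2.68 in sh-CACUL1. As for Id3, both controls were above both CACUL1 lines. As deposited, the controls themselves were alike within counting error, with a ratio of 1.03 (95% interval 0.897 to 1.18). The log2 difference of FLAG from sh-Luc was -0.03 as deposited, but 0.23 after quantile normalization and 0.23 after median-of-ratios scaling. The FPKM of Smad1 was 1.57 times lower in FLAG-CACUL1 (95% interval 1.32 to 1.88) and 2.92 times lower in sh-CACUL1 (95% interval 2.40 to 3.57). The log2 differences were -0.56 and -1.26. The sh-CACUL1 value passed the cut-off as deposited but not after quantile normalization (-0.80) or median-of-ratios scaling (-0.90), under which it stayed lower.

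Smad5 (chromosome 13 from 56703010 to 56742377, plus strand, 3 RefSeq transcripts in 1 row) had 7.84 FPKM in FLAG against 11.7 in FLAG-CACUL1, and 13.0 in sh-Luc against 7.24 in sh-CACUL1. FLAG and sh-CACUL1 were the low samples, with a ratio of 1.08 (95% interval 0.964 to 1.22) between them. The FPKM ratio was 1.49 (95% interval 1.34 to 1.66) in FLAG-CACUL1 against FLAG, a log2 difference of 0.52. In sh-CACUL1 the FPKM of Smad5 was 1.80 times lower than in sh-Luc (95% interval 1.63 to 1.98), a log2 difference of -0.77, or -0.46 after the shift of all genes is taken off. The order of the samples in Smad5 was the reverse of their order in summed adipocyte markers except that FLAG-CACUL1 and sh-Luc changed places.

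The Smad1 to Smad5 ratio was 0.972 in FLAG (95% interval 0.847 to 1.11) against 0.413 in FLAG-CACUL1 (0.354 to 0.480), and 0.601 in sh-Luc (0.546 to 0.661) against 0.370 in sh-CACUL1 (0.302 to 0.451). It was lower than in the control by 2.35 times in FLAG-CACUL1 and by 1.63 times in sh-CACUL1, and the controls differed by 1.62-fold. Smad9, the third receptor-activated SMAD of the pathway, stayed under 1 FPKM in every sample, with 0.59 in FLAG-CACUL1 and at most 0.037 in the others. Smad4, the shared partner, had 14.4 FPKM in FLAG against 16.8 in FLAG-CACUL1, and 12.9 in sh-Luc against 7.61 in sh-CACUL1.

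**Figure D3:**
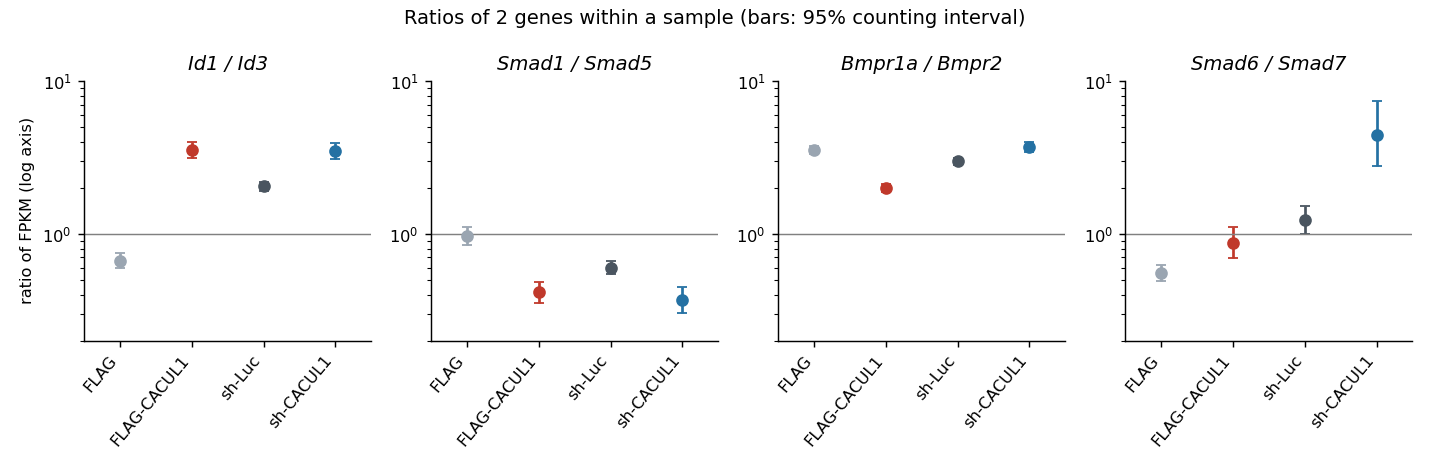
Ratios of FPKM of 2 genes within each sample on a log axis, with 95% counting intervals as bars. Id1 to Id3 is higher and Smad1 to Smad5 is lower in each CACUL1 line than in its control, and FLAG lies apart from the other 3 samples in both (0.668 and 0.972).

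Counted together, 2 of the 7 measured genes passed 2-fold in FLAG-CACUL1, Id1 upward and Id3 downward. Of all genes 14.7% passed, 7.51% upward and 7.22% downward. In sh-CACUL1 1 of 7 passed, Smad1 downward, where 21.3% of all genes passed, 4.94% upward and 16.4% downward. These counts are small and are no result about the set. Lower by any size were 3 of 7 in FLAG-CACUL1 (41.3% of all genes) and 6 of 7 in sh-CACUL1 (68.7% of all genes). The 7 genes had a median log2 difference of 0.04 in FLAG-CACUL1, with -0.53 in sh-CACUL1, beside 0.09 and -0.30 for all genes. Between the controls, 2 of 7 passed, Id1 and Id2, both lower in FLAG, where 21.0% of all genes passed in either direction.

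**Figure D4:**
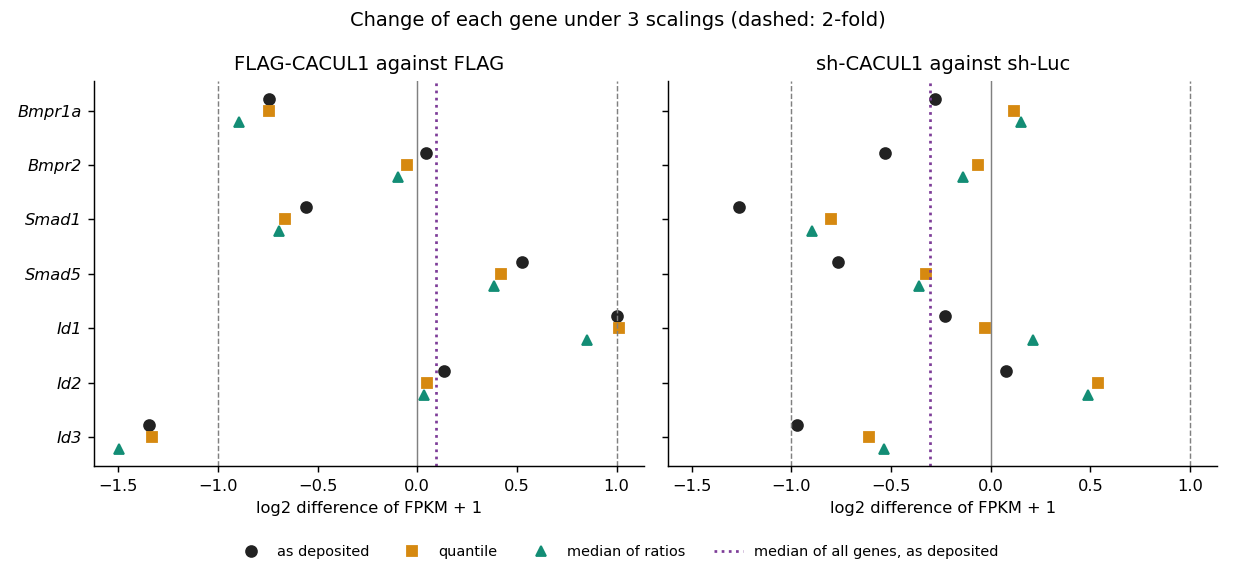
Log2 difference of FPKM + 1 of the 7 genes in each comparison as deposited and under 2 other scalings (dashed lines: 2-fold; dotted line: median of all genes as deposited). In FLAG-CACUL1 the scalings lie close together, and in sh-CACUL1 they move every gene to the right, so that Smad1 no longer passes 2-fold.

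The pathway around these genes was described from lists of 59 genes, of which 38 had a row. In FLAG-CACUL1 12 of 38 passed 2-fold, 6 upward and 6 downward, where 14.7% of all genes passed. In sh-CACUL1 14 of 38 passed, 1 upward and 13 downward, where 4.94% of all genes passed upward and 16.4% downward. After quantile normalization as after median-of-ratios scaling 6 of 38 did, 2 upward and 4 downward, where 17.3% and 16.8% of all genes passed in either direction. The 38 genes had a median log2 difference of -0.05 in FLAG-CACUL1, with -0.69 in sh-CACUL1, beside 0.09 and -0.30 for all genes. After quantile normalization the sh-CACUL1 median was -0.34. These counts include the 7 genes above. The lists were chosen with earlier results of these data known, so the shares of all genes beside the counts are no test.

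Of 12 ligand genes only Gdf5 was measured, a BMP family ligand known for joint and cartilage formation. It had 1.30 FPKM in FLAG against 0.063 in FLAG-CACUL1, and 0.30 in sh-Luc against 3.08 in sh-CACUL1, or about 44, 2, 17 and 107 fragments. Gdf5 was 20.8 times lower in FLAG-CACUL1 (95% interval 5.64 to 184) and 10.4 times higher in sh-CACUL1 (95% interval 6.06 to 18.1) than in the control. Its log2 differences were -1.11 and 1.65, the same directions as the adipocyte markers.

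Of 10 measured receptor and co-receptor genes, 1 was past 2-fold upward and 1 downward in FLAG-CACUL1, and 4 downward in sh-CACUL1. Of all genes, 7.51% passed upward and 7.22% downward in FLAG-CACUL1, and 16.4% downward in sh-CACUL1. Of the 4 receptor genes, 2 passed after quantile normalization (Acvr2a and Rgmb) and 2 after median-of-ratios scaling (Rgma and Rgmb). Acvr1, a type I receptor, had 13.1 FPKM in FLAG against 15.3 in FLAG-CACUL1, and 22.5 in sh-Luc against 8.24 in sh-CACUL1. Acvr2a, a type II receptor shared with activin, had 21.7, 18.9, 29.5 and 10.6 FPKM in the same order. Their log2 differences in sh-CACUL1 were -1.35 and -1.39, and after quantile normalization -0.95 and -1.02. After median-of-ratios scaling they were -0.93 and -0.97, both short of the cut-off. Acvr2b, its relative, was high in FLAG alone, with 3.35 FPKM against 0.44 in FLAG-CACUL1, 0.91 in sh-CACUL1 and 0.37 in sh-Luc. The BMP co-receptor Rgma had 17.4, 15.2, 14.7 and 4.94 FPKM and was low in sh-CACUL1 alone. Its log2 difference of -1.40 there was -0.96 after quantile normalization and -1.01 after median-of-ratios scaling. Its relative Rgmb went in opposite directions, with 7.08 FPKM in FLAG against 20.6 in FLAG-CACUL1, and 26.3 in sh-Luc against 7.28 in sh-CACUL1. The log2 differences of Rgmb, 1.42 and -1.72, passed 2-fold under all 3 scalings. The controls differed by as much, with a log2 difference of -1.76 in FLAG against sh-Luc. Rgmb in FLAG-CACUL1 was below sh-Luc, so its higher level there was seen against only 1 of the 2 controls. Rgmb in sh-CACUL1 was about as in FLAG, so its lower level there was also seen against only 1 of the 2.

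The inhibitory SMADs, which BMP signaling itself induces, did not follow Id1. Smad6 had 9.41 FPKM in FLAG against 2.82 in FLAG-CACUL1, and 2.39 in sh-Luc against 1.66 in sh-CACUL1. Smad7 had 17.0, 3.22, 1.95 and 0.37 FPKM in the same order. Both were far higher in FLAG than in the other 3 samples, in which Id1 was higher than in FLAG. In FLAG-CACUL1 their log2 differences were -1.45 and -2.09. In sh-CACUL1 they were -0.35 and -1.10, and after quantile normalization -0.01 and -0.91. Against the sh-Luc control FLAG-CACUL1 was not lower in either. Of 7 measured intracellular inhibitors, 2 passed downward in FLAG-CACUL1, where 7.22% of all genes did, and 3 in sh-CACUL1, where 16.4% did. In sh-CACUL1 0 of these 3 passed after quantile normalization or median-of-ratios scaling. The other genes past the cut-off in sh-CACUL1 were Smurf1, a ubiquitin ligase for SMADs, at 6.21 FPKM in sh-CACUL1 and 16.7 in sh-Luc, and the SMAD co-repressor Ski, at 6.94 and 16.8. Neither passed after quantile normalization, with -0.88 and -0.74.

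Secreted antagonists and modulators had the largest summed level of the pathway lists, and 60.3% to 86.9% of it was Fstl1 alone. Fstl1, a secreted follistatin-like protein that binds BMPs, had 224 FPKM in FLAG against 656 in FLAG-CACUL1, and 625 in sh-Luc against 107 in sh-CACUL1. Fst, which encodes the activin and BMP antagonist follistatin, had 3.67, 16.9, 40.5 and 19.2 FPKM. Fstl1 and Fst were higher in FLAG-CACUL1 than in FLAG, by 1.55 and 1.94 on the log2 scale. In sh-CACUL1 their log2 differences were -2.53 and -1.04. FLAG was itself below sh-Luc, with log2 differences of -1.47 and -3.15. In FLAG-CACUL1 the Fstl1 level was close to that in sh-Luc (656 and 625 FPKM), and Fst was lower than there (16.9 and 40.5 FPKM). Compared with FLAG, sh-CACUL1 was lower in Fstl1 (107 and 224 FPKM) but higher in Fst (19.2 and 3.67 FPKM). The Fstl1 difference in sh-CACUL1 passed under all 3 scalings and that of Fst did not (-0.69 after quantile normalization). Bmper, a modulator that binds BMPs outside the cell, was higher in both CACUL1 lines, with 10.5 FPKM in FLAG against 26.1 in FLAG-CACUL1, and 12.3 in sh-Luc against 24.3 in sh-CACUL1. Its log2 differences were 1.24 and 0.93, the latter 1.40 after quantile normalization. Nbl1, another antagonist, had 2.80 FPKM in FLAG and at most 0.68 in the others.

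Of the other listed targets, Atoh8, a BMP-induced transcription factor gene, had 0.58 FPKM in FLAG against 2.49 in FLAG-CACUL1, and 4.53 in sh-Luc against 1.31 in sh-CACUL1. Its log2 differences were 1.14 and -1.26. FLAG differed from sh-Luc in Atoh8 by -1.81, and FLAG-CACUL1 was below sh-Luc. Atoh8 in sh-CACUL1 was above FLAG. Of the 10 measured targets, which include Id1 to Id4, Smad6 and Smad7, 2 passed upward and 3 downward in FLAG-CACUL1. Of all genes, 7.51% passed upward and 7.22% downward there. In sh-CACUL1 3 targets passed downward. In sh-CACUL1, where 16.4% of all genes passed downward, only Id4 of these 3 still passed after either other scaling. Atoh8 was then at -0.89 after quantile normalization and -0.95 after median-of-ratios scaling, and Smad7 at -0.91 and -0.89.

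The E proteins that ID proteins bind are encoded by Tcf3, Tcf4 and Tcf12. Tcf3 had 24.3 FPKM in FLAG against 34.4 in FLAG-CACUL1, and 53.4 in sh-Luc against 14.9 in sh-CACUL1. Tcf4 had 8.09, 15.4, 19.2 and 7.32 FPKM, and Tcf12 had 12.4, 21.8, 22.8 and 10.5 FPKM. For each of them both FLAG and sh-CACUL1 were below FLAG-CACUL1 and sh-Luc. In sh-CACUL1 their log2 differences were -1.77, -1.28 and -1.04, and of these only Tcf3 passed after quantile normalization (-1.46). In FLAG-CACUL1 they were 0.48, 0.85 and 0.77. The zinc-finger genes Zfp423, Zfp521 and Hivep2, linked to BMP signaling in fat precursors, were also listed. Zfp423, a SMAD partner and preadipocyte commitment factor, had 2.96, 3.65, 0.95 and 6.52 FPKM, a log2 difference of 1.94 in sh-CACUL1. The low sample was sh-Luc, and FLAG differed from it in Zfp423 by 1.02. Zfp521, known to oppose Zfp423, had 1.29, 5.11, 16.1 and 3.55 FPKM, with log2 differences of 1.42 and -1.91. FLAG differed from sh-Luc in Zfp521 by -2.90, and FLAG-CACUL1 was below sh-Luc. Zfp521 in sh-CACUL1 was above FLAG. Hivep2, a SMAD partner in fat cells, had 3.48, 5.67, 6.05 and 1.22 FPKM. The Zfp423, Zfp521 and Hivep2 differences of sh-CACUL1 from sh-Luc passed under all 3 scalings.

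**Figure D5:**
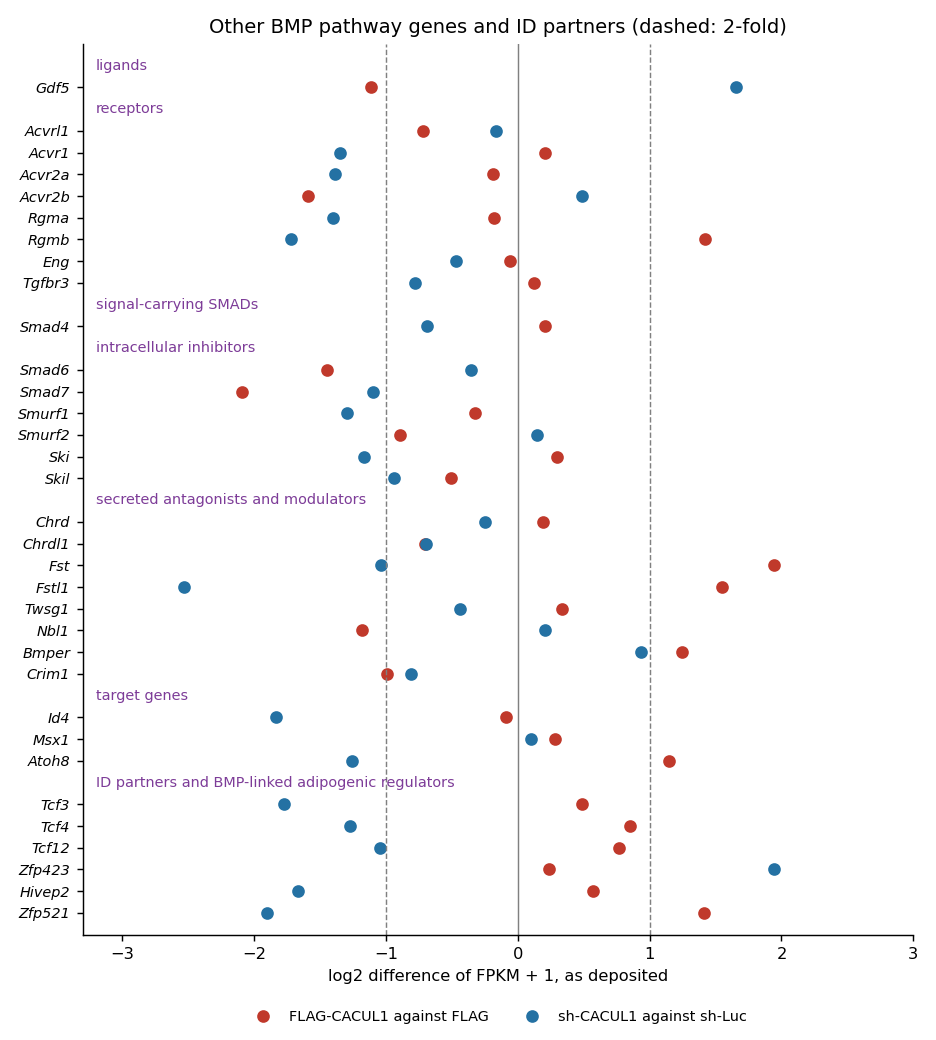
Log2 difference of FPKM + 1, as deposited, of 33 other listed genes with at least 1 FPKM in a sample, by role (red: FLAG-CACUL1 against FLAG; blue: sh-CACUL1 against sh-Luc; dashed lines: 2-fold). Rgmb, Fst, Fstl1, Atoh8 and Zfp521 pass upward in FLAG-CACUL1 and downward in sh-CACUL1, and Smad7 passes downward in both. In sh-CACUL1 the values of Fst, Atoh8 and Smad7 do not pass after quantile normalization. FLAG was below sh-Luc in Rgmb, Fst, Fstl1, Atoh8 and Zfp521, with log2 differences of -1.76, -3.15, -1.47, -1.81 and -2.90. For these genes except Fstl1 (656 and 625 FPKM), FLAG-CACUL1 was also below sh-Luc. In Rgmb, Fst, Atoh8 and Zfp521 sh-CACUL1 was not below FLAG, and Fst had 19.2 FPKM in sh-CACUL1 and 3.67 in FLAG. Fstl1 in sh-CACUL1 was below both controls.

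The 3 genes of the ID and SMAD set that passed 2-fold in a comparison were also matched by pattern over the 4 samples, among 9563 genes with at least 1 FPKM in every sample. Nearest to Id1 were Sharpin, Ahsa1 and Znrd1, at distances of 0.016, 0.037 and 0.055 on the log2(FPKM + 1) scale. Ahsa1, for example, had 44.0, 91.1, 98.3 and 83.6 FPKM. Nearest to Id3 were Pdlim1, Mus81 and Wsb1, at 0.095, 0.12 and 0.14. Nearest to Smad1 were Wasf2, Rev3l and Uaca, at 0.067, 0.080 and 0.084. With 4 samples a close match in pattern is a description and no more.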

How the data were processed

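The authors deposited FPKM values for 13110 rows of RefSeq transcripts in each of 4 samples (FLAG, FLAG-CACUL1, sh-Luc, sh-CACUL1; 1 per group). Per the labels and the study's methods, total RNA was taken after 8 days of differentiation and a company prepared and sequenced the libraries. The submitters' processing notes name mm10. The aligner, the counting program, the use of strand and any normalization beyond FPKM are not given in the sources used here.

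Rows were named through the RefSeq identifiers of GENCODE M21 (GRCm38). No symbol was found for 196 rows, 8 rows matched several, and 50 rows sharing 25 symbols were summed, none of them a gene described above. Changes were differences of log2(FPKM + 1), with no filter on low values and a cut-off of 2-fold. No test was made with 1 sample per group. Depth came from the spacing of low FPKM times length in single-transcript rows 3000 bases or longer. Fragments were estimated as FPKM times length times depth, and ratio intervals are exact (Clopper-Pearson) at 95%.

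The genes and lists were chosen with earlier results of these data known. Named were the 9 genes, pathway genes with at least 1 FPKM in a sample and a 2-fold change, the partners Acvr1, Acvr2a, Acvr2b, Smad4, Smad9, Smad6, Smad7 and Id4, and the 3 nearest patterns of each of the 9 genes past 2-fold. All 6 genes of the ID partner list were also named. A gene of the pathway lists that met this rule is counted but not reported here. There were 9 alternatives. Scripts (Python 3.11.15, numpy 2.4.6, scipy 1.17.1, pandas 2.3.3, matplotlib 3.10.9) were tested on simulated data.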

Additional observations from a re-analysis of the deposited data

How the results depend on the processing

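Scaling matters most in sh-CACUL1. Of the 7 genes, 1 passed 2-fold there as deposited, 2 with no pseudocount, 0 after quantile normalization, 0 after median-of-ratios scaling, 3 against the FLAG control and 0 at 3-fold. In FLAG-CACUL1 2 passed as deposited, 1 after median-of-ratios scaling, 1 against the sh-Luc control and 0 at 3-fold. The 1 against sh-Luc was Id2 (-2.09), which did not pass against FLAG. Against sh-Luc Id3 was at -0.92 and did not pass. Of the 38 pathway genes, 12 in FLAG-CACUL1 became 7 with at least 1 FPKM in every sample and 3 at 3-fold, and 14 in sh-CACUL1 became 6 after quantile normalization, 6 after median-of-ratios scaling and 4 at 3-fold. As deposited, the share of all genes past 2-fold was 14.7% for FLAG-CACUL1 and 21.3% for sh-CACUL1. Quantile normalization gave 14.1% and 17.3%, and scaling by median of ratios gave 14.7% and 16.8%, respectively. No such share was computed for the other settings, so the counts there cannot be set against all genes. The Id1 difference in FLAG-CACUL1 reversed to -0.15 against the sh-Luc control. Of the 14 log2 differences of the 7 genes, 14 kept their sign with a pseudocount of 0.1, with none and with the highest row in place of the sum, 12 after quantile normalization, 11 after median-of-ratios scaling and 10 against the other control. The cause was not tested. No paired analysis was possible because each group had 1 sample. Depth limits Id2, Smad9 and Gdf5 most, which had few fragments in some samples.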

Other observations

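BMPs are also known for bone and cartilage formation, and the markers of those lineages had values outside the comparisons above. Of 6 osteoblast markers 3 were measured. Runx2, the regulator of the osteoblast lineage, had 2.74 FPKM in FLAG against 4.22 in FLAG-CACUL1, and 9.28 in sh-Luc against 3.69 in sh-CACUL1. Alpl, which encodes the alkaline phosphatase of bone, had 11.6, 2.28, 0.37 and 0.76 FPKM, and Spp1, which encodes osteopontin, had 147.7, 170.5, 51.2 and 5.29. Of 4 chondrocyte markers 2 were measured, and Sox9, the regulator of cartilage, had 5.47, 16.3, 20.8 and 3.15 FPKM. Its log2 differences, 1.42 in FLAG-CACUL1 against -2.39 in sh-CACUL1, passed 2-fold under all 3 scalings. The controls differed as well, by -1.75 in FLAG against sh-Luc, and Sox9 in FLAG-CACUL1 was below sh-Luc. Comp, a cartilage matrix gene, had 0.65, 0.45, 1.75 and 4.79 FPKM.

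Of 7 measured preadipocyte and fibroblast markers, 3 passed upward and 1 downward in FLAG-CACUL1, where 7.51% and 7.22% of all genes did. In sh-CACUL1 2 of these markers passed upward and 4 downward, where 4.94% and 16.4% of all genes did. The summed level of these markers was 7187 FPKM in FLAG against 8274 in FLAG-CACUL1, and 4509 in sh-Luc against 1046 in sh-CACUL1. Of 5 proliferation markers, 0 passed in FLAG-CACUL1 (1 after quantile normalization) and 3 passed downward in sh-CACUL1, none of them after quantile normalization. The 3 measured muscle markers summed to 11.5, 29.8, 34.8 and 6.39 FPKM, most of it Acta2 in FLAG-CACUL1 and sh-Luc. The 3 measured macrophage markers summed to 24.9, 68.3, 6.11 and 2.91 FPKM, most of it Cd68 in FLAG and Lyz2 in FLAG-CACUL1. The part of other cell types in the BMP and ID values was not tested.

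Smad6 and Smad7 differed from each other in sh-CACUL1. Their ratio of FPKM was 0.552 in FLAG (95% interval 0.491 to 0.620) against 0.875 in FLAG-CACUL1 (0.690 to 1.10), and 1.23 in sh-Luc (0.993 to 1.51) against 4.45 in sh-CACUL1 (2.77 to 7.36).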
